A study of Mus musculus with 2 samples.

Results

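The Id family (Id1, Id2, Id3 and Id4) and the inhibitory Smads (Smad6 and Smad7) are 6 of the 24071 genes listed in 2 single-cell libraries of mouse spinal cord. They are BMP-responsive genes followed through ependymal cells of both libraries, endothelial segments and mural cells. They were selected on measured values, among them the lower Id3 level in traced ependymal cells, so the members' levels are described here without a test.

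Bone morphogenetic proteins (BMPs) bind type I and type II receptor kinases, which phosphorylate Smad1, Smad5 and Smad9, and these enter the nucleus with Smad4 and bind DNA near target genes. The Id genes are early targets of this signal. Id proteins have a helix-loop-helix domain but no basic DNA-binding region, so they pair with E proteins such as Tcf3, Tcf4 and Tcf12 and keep them from DNA. Smad6 and Smad7 are targets too, and they block the receptors and receptor-regulated Smads, which makes them feedback inhibitors. In blood vessels the pathway is best known through the receptor ALK1 (Acvrl1) and its co-receptor endoglin (Eng), and in neural stem cells through the control of quiescence and glial fate.

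In the mm10 (GRCm38) annotation all 6 members are protein-coding genes. Id1 lies on chromosome 2 (152736251 to 152737410, plus strand), Id2 on chromosome 12 (25093799 to 25097140, minus strand) and Id3 on chromosome 4 (136143497 to 136145755, plus strand). Id4 lies on chromosome 13 (48261228 to 48266026, plus strand), Smad6 on chromosome 9 (63953076 to 64022059, minus strand) and Smad7 on chromosome 18 (75367529 to 75395935, plus strand).

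Both libraries came from spinal cords of adult C57BL/6j mice, 10 to 12 weeks old, of the genotype Clec9acre/creR26LSLtdTomato/LSLtdTomato. Cre was made from the locus of Clec9a, which encodes the receptor DNGR-1. A cell with present or past Clec9a activity, and its progeny, could therefore carry the tdTomato label whatever its present identity. The study attributes part of the incomplete ependymal labelling to incomplete recombination, so the non-traced group can hold cells of that history. Live CD45- CD133+ cells were sorted after myelin removal into a DNGR-1 traced and a non-traced tube, and each tube gave 1 library. With 1 library a group there was no replicate and no test was possible. The number of animals behind each library was not given in the sources used here.

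The non-traced library held 25411 cell barcodes with a median of 7218 unique molecular identifiers (UMIs, tags of single captured RNA molecules), and the traced library held 4825 with a median of 8566. The libraries shared 42 barcodes, 0.87% of the traced ones, and leaving these out changed no call given here. Cells were named from marker lists after clustering without the members. Ependymal-like cells, the ciliated lining of the central canal, numbered 4714 in the traced and 1164 in the non-traced library. In each of these groups 10 of 10 ependymal markers reached 10 CPM (UMIs of a gene per 1000000 UMIs of its group). UMIs come from the 3′ end, 1 tag a molecule, so CPM values were not scaled by gene length. The non-traced library further held 21085 endothelial-like cells, of which 3558 were arterial, 9820 capillary and 2106 venous, and 282 mural cells. Of these, 119 were pericyte-like and 106 smooth muscle-like, and a sub-cluster of 57 cells led by genes such as Mcf2l, with 8 of 8 pericyte markers but endothelial genes in the lead, was left without a name. The traced library held 54 endothelial-like cells. The 8 endothelial markers summed to 356 CPM in the non-traced ependymal group, where none was at 0, against 2.98 CPM in the traced one, where Cdh5 was at 0. They summed to 20966 CPM in non-traced endothelial-like cells.

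Promoter windows are shown for Id4, which separated ependymal from endothelial cells, and for Smad6, which separated arterial from capillary cells. The RefSeq sequences (GRCm38.p6) run from 250 bases before to 10 bases after the start annotated there, 5′ to 3′ on the gene's own strand. The Id4 window is chr13:48260866-48261125 on the plus strand, and the Smad6 window is chr9:64022050-64022309 on the minus strand. Capitals mark 2 motifs. GGCGCC is a GC-rich element of the kind bound by Smad1 and Smad5. GTCT, or AGAC on the other strand, is the Smad box, and GTCTAGAC joins both strands' boxes into a palindrome.
Id4: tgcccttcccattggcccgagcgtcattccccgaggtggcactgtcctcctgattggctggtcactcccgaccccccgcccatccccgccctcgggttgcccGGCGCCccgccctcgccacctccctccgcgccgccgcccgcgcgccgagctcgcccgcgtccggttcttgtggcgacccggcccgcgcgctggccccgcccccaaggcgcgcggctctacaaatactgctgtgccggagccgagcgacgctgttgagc
Smad6: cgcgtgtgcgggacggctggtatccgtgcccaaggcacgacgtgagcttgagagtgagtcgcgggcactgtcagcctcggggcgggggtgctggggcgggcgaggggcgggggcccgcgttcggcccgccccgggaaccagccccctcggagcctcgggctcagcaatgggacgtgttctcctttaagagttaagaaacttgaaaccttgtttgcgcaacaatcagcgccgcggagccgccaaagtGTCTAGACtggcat
The Id4 window held GGCGCC with its first base at position -148 from the start and held no Smad box. The Smad6 window held the palindrome GTCTAGAC across the start, from position -4, and no GGCGCC. Among 32851 windows of the same 260 bases, 84% held GTCT on either strand, 9.96% held GGCGCC and 0.177% (58 windows) held GTCTAGAC. Of the other members searched, the Id3 window held GTCT at -68 and AGAC at -166, and the Id2 window held AGAC at -23 and GGCGCC at -231. Id1 had no entry in the table and Smad7 was not searched. A match says only that these letters occur in the window.

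The members did not share 1 pattern. Id1, Id3 and Smad7 were highest in endothelial cells, intermediate in mural cells and lowest in ependymal cells, and Id4 was high in ependymal cells of both libraries and close to 1 CPM in endothelial cells. Id2 and Smad6 were also highest in arterial cells, but their ependymal levels stayed within 4-fold of the endothelial level. All intervals given are exact 95% intervals and cover counting error only, not the spread between animals, sorts or libraries.

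**Figure D1:**
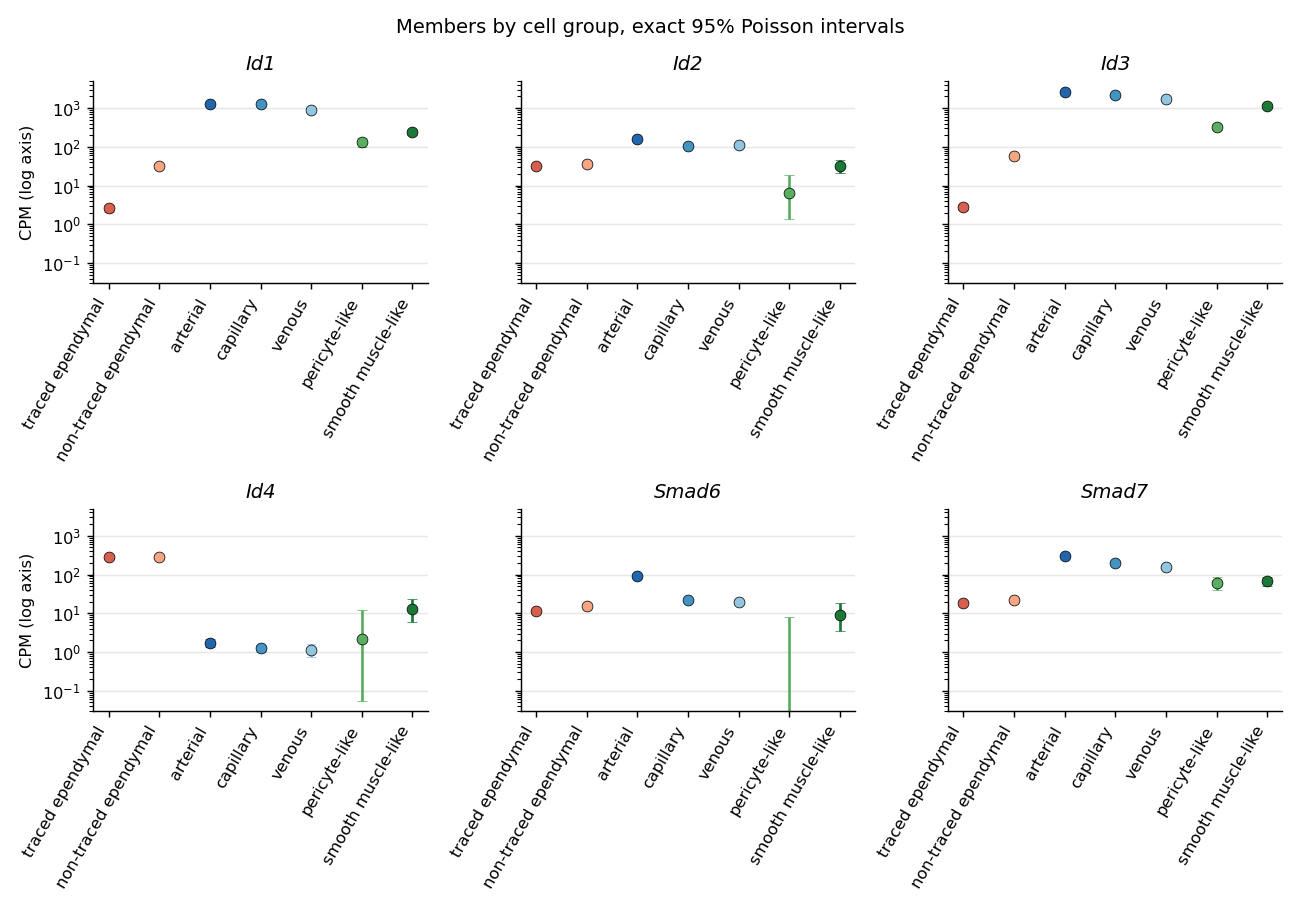
Level of each member in 7 cell groups, as CPM on a log axis (y), with exact 95% Poisson intervals as bars. Points are sums over the cells of a group: traced and non-traced ependymal-like (red and salmon), arterial, capillary and venous (blues), pericyte-like and smooth muscle-like (greens). Id1 and Id3 differ between the ependymal groups, and Id4 is at 280 and 292 CPM in them. Smad6 had 0 UMIs in pericyte-like cells, so only its upper limit is drawn there.

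Id4, the Id gene best known from neural progenitors and astroglia, was the most abundant member in ependymal cells. Its level was 280 CPM in traced cells (interval 275 to 285), compared with 292 CPM in the non-traced ependymal group (281 to 303), with 12698 and 2530 UMIs behind the values. The intervals overlapped, and the log2 difference (traced minus non-traced, on CPM + 1) was -0.06. After each cell was thinned to 1000 UMIs, 23.7% of traced and 25.9% of non-traced ependymal-like cells held an Id4 UMI, against 0.0996% of endothelial-like cells. Unthinned shares were 86%, 81% and 1.18%, at median depths of 8562, 7056 and 6914 UMIs. In endothelial-like cells Id4 reached 1.4 CPM (1.24 to 1.59), so that non-traced ependymal-like cells held 208-fold more (interval of the ratio 183 to 237).

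Id2, an Id gene also expressed in many glial and immune cells, was at 32 CPM in traced cells (30.3 to 33.6), compared with 37.1 CPM in the non-traced ependymal group (33.2 to 41.4). Smad6 was at 11.2 CPM in traced cells (10.3 to 12.2), compared with 15 CPM in non-traced ones (12.5 to 17.8). Smad7, the inhibitor that acts on both the BMP and the TGF-beta branch, was at 18.9 CPM (17.7 to 20.3) and 21.6 CPM (18.6 to 24.9). The Smad6 intervals did not overlap, those of Id2 and Smad7 did by a small margin, and all 3 differences were small: -0.21 for Id2, -0.39 for Smad6 and -0.18 for Smad7 on the log2 scale. Thinned shares of cells with a UMI lay between 1.06% and 2.92% for these 3 genes in both ependymal groups.

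Id1 and Id3, the pair of Id genes most strongly induced by BMP in endothelium, set the ependymal groups apart. Id3 was at 2.87 CPM in traced cells (2.4 to 3.4, 130 UMIs), compared with 57 CPM in the non-traced ependymal group (52.1 to 62.2, 494 UMIs). Id1 was at 2.58 CPM (2.13 to 3.09) in traced cells, compared with 31.6 CPM (28 to 35.6) in non-traced ones. The non-traced level was 19.9-fold higher for Id3 and 12.2-fold higher for Id1, with log2 differences of -3.91 and -3.19. Of 9572 genes of at least 10 CPM in either group, 1.43% were over 2-fold lower in traced cells and 0.794% were over 2-fold higher. Id1 and Id3 were the 2 members past 2-fold, but the selection used this contrast and nothing is read from their count. Thinned shares of cells with an Id3 UMI were 0.297% in traced cells, compared with 6.36% in non-traced ones, and for Id1 they were 0.382% and 3.01%. Unthinned, 30.4% of non-traced cells held Id3 and 19.6% held Id1. A single endothelial marker was found in 23.6% of them, as a mean over the 8 markers. Of the 1164 cells, 1012 held a UMI of at least 1 of these markers.

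Where each cluster was named as a whole over both libraries, the differences were -6.24 for Id3 and -5.71 for Id1, and Smad7 passed 2-fold at -1.20. This naming moved 105 and 49 non-traced cells named endothelial into the ependymal group, with 36 that held endothelial and ependymal markers. The sign of the Id4 difference was not stable, with values from -0.14 to 0.12 over 10 alternatives, and Smad7 turned to 0.05 without cells that held a UMI of 4 endothelial markers.

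Since endothelial markers differed between the ependymal groups in the same direction, each member's level was set beside that of the markers within the non-traced library. Non-traced ependymal-like cells held 2.45% of the endothelial level of Id1 and 2.53% of that of Id3. The 8 endothelial markers lay between 1.38% (Cldn5) and 2.54% (Egfl7) with a median of 1.74%. Of 46 other genes with at least 500 CPM in endothelial-like and under 10 CPM in traced ependymal-like cells, the percentages ran from 1.26 to 3.16 with a median of 1.94, and 84.8% of them lay below Id3 and 82.6% below Id1. Id1 and Id3 thus lay within the range of endothelial genes, towards its upper end. The other members lay outside it, with Smad7 at 9.64%, Id2 at 31.4% and Smad6 at 37.9%, and Id4 at over its endothelial level.

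**Figure D2:**
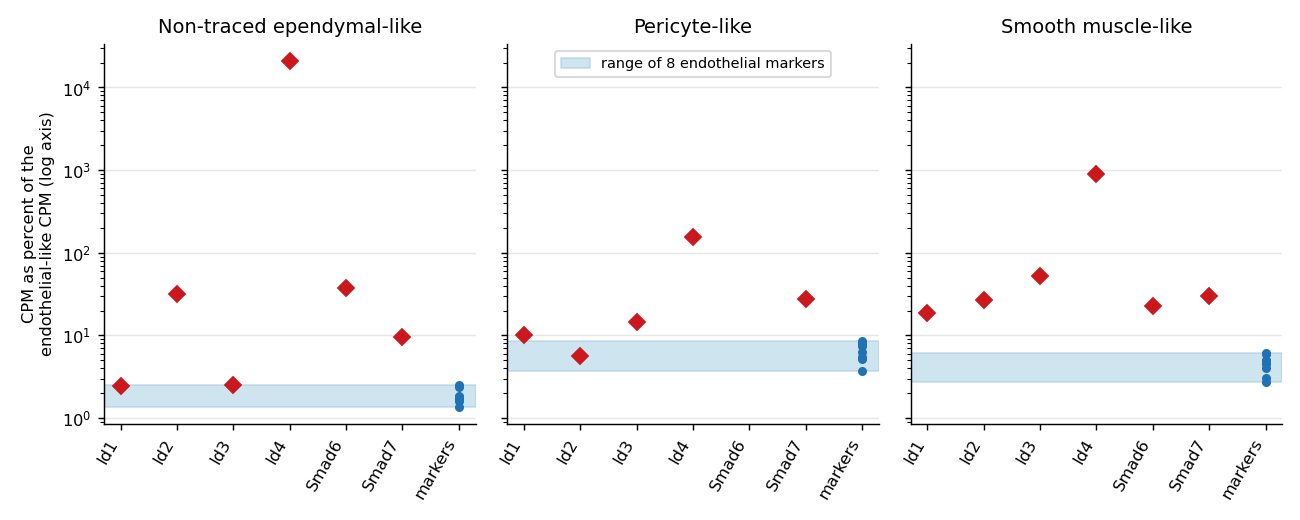
Level of each member (diamonds) in non-traced ependymal-like, pericyte-like and smooth muscle-like cells as a percent of its CPM in endothelial-like cells (y, log axis). Blue points and band give the 8 endothelial markers and their range, which holds Id1 and Id3 in ependymal-like cells and lies below them in pericyte-like and smooth muscle-like cells. Smad6 had 0 UMIs in pericyte-like cells and has no point there.

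Non-traced ependymal-like cells were also split by their number of endothelial marker UMIs. In the 152 cells with no such UMI, Id3 was at 52.3 CPM (39 to 68.8, 51 UMIs) and Id1 at 24.6 CPM (15.8 to 36.6, 24 UMIs). With 1, 2, and 3 to 5 marker UMIs, Id3 was at 54.2, 50.1 and 48.4 CPM and Id1 at 27.9, 28.9 and 27.6 CPM. In the 71 cells with 6 or more, Id3 was at 136 CPM (109 to 168) and Id1 at 81.4 CPM (60.8 to 107). Both genes lay at about the same level while the summed markers ran from 0 to 453 CPM, and were higher where the markers reached 1314 CPM. At a median of 7056 UMIs per cell and 356 CPM of markers, a cell's marker count varies by sampling. The split therefore cannot separate cells with endothelial RNA from cells without it. The 4588 traced ependymal-like cells with no marker UMI held 2.91 CPM of Id3 (2.43 to 3.46) and 2.59 CPM of Id1 (2.14 to 3.12). Without marker-positive cells the differences between the libraries were -3.77 for Id3 and -2.83 for Id1, compared with -3.91 and -3.19 in all cells. The share of endothelial RNA in these droplets that such markers miss was not tested.

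Only a cluster led by Ucma held ependymal-like cells of both libraries, 201 traced and 383 non-traced. The other 781 non-traced ependymal-like cells lay in a cluster with no traced cells. Outside the Ucma-led cluster, where the libraries shared no cluster of ependymal-like cells, Id3 was at 2.36 CPM in traced cells. This compared with 49.5 CPM in non-traced ones (-3.91). Inside the Ucma-led cluster it was at 13.7 CPM (9.12 to 19.8) and 72.9 CPM (63.2 to 83.7), a difference of -2.33. Traced cells of this cluster therefore held more Id3 than other traced cells, without an overlap of the intervals, while Id1 did not follow, with 2 UMIs (0.98 CPM) against 2.66 CPM elsewhere. Id4 was somewhat lower inside the cluster than outside in both libraries, at 235 against 282 CPM in traced and 251 against 311 CPM in non-traced cells. Non-traced cells carried more mitochondrial RNA (median 5.81% of UMIs against 3.99% in traced cells), and its part in the differences between the libraries was not tested beyond leaving out cells over 5%, where the directions stayed.

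Within each library, ependymal-like cells were clustered again, which gave 9 traced and 6 non-traced sub-clusters of at least 50 cells. Id4 varied least, from 213 to 317 CPM in traced and from 226 to 343 CPM in non-traced sub-clusters. Id2 ranged from 13.5 to 46.9 CPM in traced and from 20.7 to 99.9 CPM in non-traced sub-clusters. Its level tended to go with the summed level of 8 immediate early genes (such as Fos, Jun and Egr1, which respond within minutes to stimulation or to dissociation of tissue), with Pearson's r of 0.92 over the 9 traced and 0.80 over the 6 non-traced sub-clusters. These sub-clusters share a library and the correlation is a description. The lowest Id2, at 13.5 CPM, lay in the traced sub-cluster with the lowest immediate early sum, 518 CPM, and the highest, at 99.9 CPM, in the non-traced one with the highest, 20186 CPM. Smad6 ranged from 6.45 to 17.3 CPM in traced and from 12 to 20 CPM in non-traced sub-clusters. The 17.3 CPM rested on 2 UMIs (2.09 to 62.3) in a traced sub-cluster of 56 cells with a median of 1688 UMIs. Smad7 ranged from 13.9 to 22.8 and from 16.9 to 30.5 CPM.

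**Figure D3:**
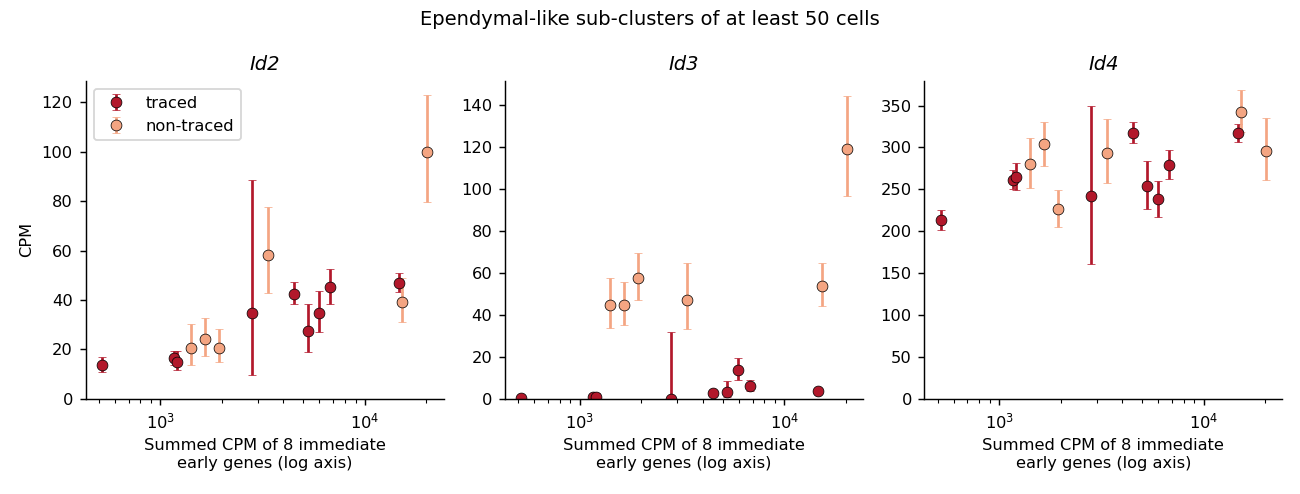
Id2, Id3 and Id4 in ependymal-like sub-clusters of at least 50 cells (y, CPM with exact 95% Poisson intervals) against the summed CPM of 8 immediate early genes (x, log axis). Traced sub-clusters are dark red and non-traced ones salmon. Id2 tends to be higher where the immediate early sum is higher, with exceptions in both libraries, the 6 non-traced sub-clusters lie above the 9 traced ones for Id3, and Id4 lies between 213 and 343 CPM.

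For Id3 the sub-clusters of the 2 libraries did not overlap, with 0 to 13.5 CPM in traced and 44.4 to 119 CPM in non-traced ones. The 0 came from the traced sub-cluster of 56 cells with a median of 1688 UMIs, where the upper limit was 31.8 CPM. The highest non-traced value lay in the sub-cluster with the highest summed endothelial markers, 700 CPM, against 299 to 344 CPM in the other 5, and with the highest immediate early sum. Over the 6 sub-clusters Id3 had r of 0.97 with the endothelial and 0.74 with the immediate early sum, and the part of either was not tested. Id1 ranged from 20.5 to 63.4 CPM in non-traced sub-clusters and was highest in the same one. Among traced sub-clusters the highest Id1 level lay in the 95 cells led by Mki67, a marker of dividing cells. They held 17 Id1 UMIs or 13.7 CPM (7.98 to 21.9). This was 5.31-fold the level of all traced ependymal-like cells, a group that includes these 95. Id3 was at 3.22 CPM in the 95 cells, with 4 UMIs.

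In endothelial cells the Id1 and Id3 transcripts were among the strongly expressed genes. Id3 was found in 83.5% of endothelial-like cells at 1000 UMIs per cell (99.7% unthinned) at 2248 CPM, and Id1 in 63.8% (96.8% unthinned) at 1289 CPM. Compared with endothelial-like cells, 5 of 6 members were over 2-fold lower in non-traced ependymal-like cells, where 19.5% of 10507 genes were over 2-fold lower and 27.2% over 2-fold higher. The ratio of endothelial to ependymal level was 40.8 for Id1, 39.5 for Id3, 10.4 for Smad7, 3.18 for Id2 and 2.64 for Smad6. Id4 was the 1 member that was higher in ependymal cells.

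Across the arteriovenous axis, Smad6 changed most. It was at 89.7 CPM in arterial (86.7 to 92.7), 21.9 CPM in capillary (20.9 to 23) and 19.3 CPM in venous cells (17.6 to 21.1). Arterial cells thus held 4.09-fold the capillary level (interval 3.86 to 4.34), a log2 difference of 1.98, which ran from 1.81 to 2.32 over 9 alternatives. Smad6 was the 1 member past 2-fold in this contrast, in which 3.24% of 8464 genes were over 2-fold higher and 1.29% over 2-fold lower. At 1000 UMIs per cell, a Smad6 UMI was found in 8.8% of arterial, 1.96% of capillary and 2.28% of venous cells. In the 3 arterial sub-clusters it was at 70.1, 115 and 141 CPM, and in the 4 capillary ones between 13.5 and 27.9 CPM, so the segments did not overlap. The highest value belonged to the arterial sub-cluster led by Cytl1, and the lowest arterial value to the one led by Igfbp3.

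Smad7, Id2 and Id3 were also highest in arterial cells, by less than 2-fold. Smad7 was at 301 CPM in arterial, 204 CPM in capillary and 154 CPM in venous cells, an order in which no intervals overlapped. Its arterial sub-clusters lay between 289 and 335 CPM and its capillary ones between 160 and 235 CPM. The venous sub-clusters, at 153 and 171 CPM, overlapped the capillary range, so Smad7 did not separate venous from capillary cells. Id2 was at 158 CPM in arterial cells (154 to 162) against 108 CPM in capillary (106 to 110) and 110 CPM in venous cells (105 to 114), the last pair with overlapping intervals. Id3 was at 2561, 2178 and 1717 CPM in arterial, capillary and venous cells. The highest capillary sub-cluster, at 2524 CPM of Id3, exceeded the lowest arterial one, at 2464 CPM, so Id3 did not separate these segments.

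Id1 was about equal in arterial (1311 CPM, 1299 to 1322) and capillary cells (1280 CPM, 1273 to 1288) and lower in venous cells (883 CPM, 871 to 894). Against capillary cells the venous log2 difference was -0.54 for Id1, -0.34 for Id3, -0.40 for Smad7, -0.17 for Smad6 and 0.02 for Id2. None of these passed 2-fold, where 1.44% of 8354 genes were over 2-fold higher and 0.563% over 2-fold lower in venous cells. The signs for Id2 and Smad6 turned under 1 alternative each. The 2 venous sub-clusters had 890 and 721 CPM of Id1 and the 4 capillary ones 980 to 1481 CPM, so that these did not overlap. Endothelial-like cells of no named segment, 5601 cells, had the highest Id1, 1536 CPM, and held 2417 CPM of Id3 and 39.2 CPM of Smad6. They include a sub-cluster of 891 cells led by pericyte genes such as Ndufa4l2 and Abcc9, with Id1 at 1492 CPM. Pericyte markers summed to 985 CPM in the unnamed group, against 542 CPM in all non-traced endothelial-like cells. Id4 stayed between 1.11 and 1.71 CPM in all segments. The immediate early sum was 13486, 15625 and 22137 CPM in arterial, capillary and venous cells, and its part in these differences was not tested.

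**Figure D4:**
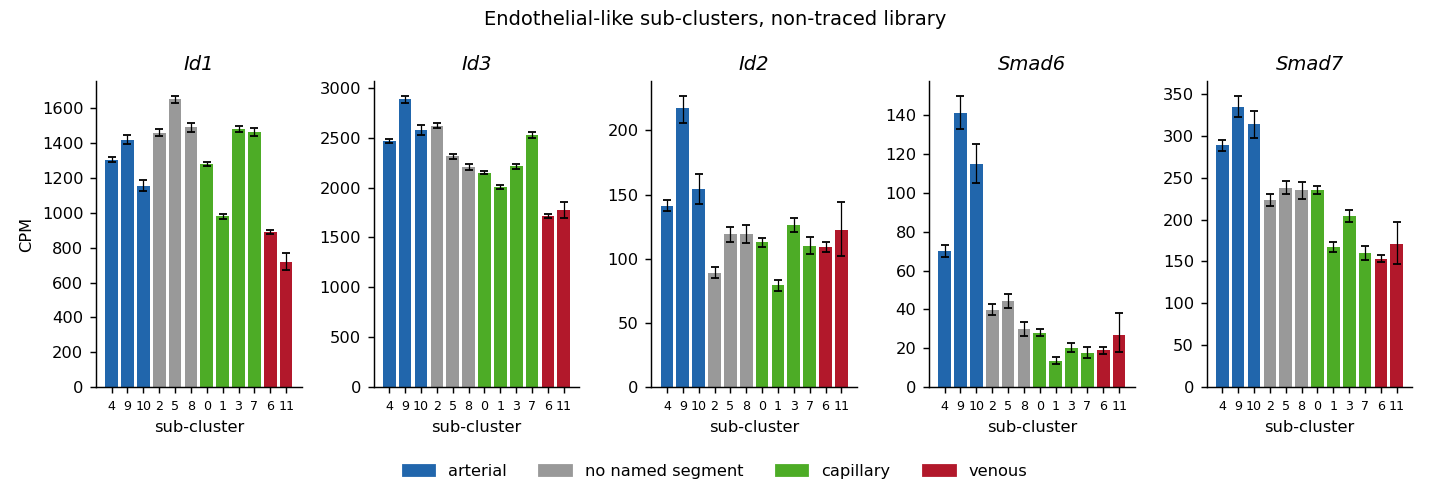
Id1, Id3, Id2, Smad6 and Smad7 in the 12 endothelial-like sub-clusters of the non-traced library (bars, CPM from 0, with exact 95% Poisson intervals), coloured by segment. Smad6 lies at 70.1 to 141 CPM in the 3 arterial sub-clusters and at or below 44.2 CPM in the other 9, and Id1 is lowest in the 2 venous ones.

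Cells with a UMI of 1 member were also counted for others, and the excess over cells without it varied by pair and group. Id3 was found in 85.1% of capillary cells with an Id1 UMI and in 78.4% of those without, and in 88.2% and 85% of arterial cells. Smad7-positive capillary cells held Id1 in 66.4% and Smad7-negative ones in 61.6%, while in venous cells both shares were 51.2%. In smooth muscle-like cells Id3 was found in 15 of 17 cells with Id1 (88.2%, 63.6 to 98.5) and in 47.2% of those without (36.5 to 58.1). Smad6 and Smad7 showed no such excess beyond counting error in arterial cells, where Smad7 was found in 23.3% of cells with Smad6 and 24.5% of cells without. All cells were at the same depth for these counts.

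Mural cells held less of most members than endothelial cells. Of the members, 5 reached 10 CPM in either group, and all 5 were over 2-fold lower in mural cells, where 15% of 9515 genes were over 2-fold lower and 15.7% over 2-fold higher. Id3 was at 746 CPM (704 to 791), Id1 at 195 CPM (173 to 218), Smad7 at 65.3 CPM (53.1 to 79.5), Id2 at 22.4 CPM (15.5 to 31.3) and Smad6 at 5.93 CPM (2.71 to 11.3). Id4 was at 7.25 CPM with 11 UMIs.

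The 2 named mural groups differed in Id3. It was at 1162 CPM in smooth muscle-like (1088 to 1240) and 324 CPM in pericyte-like cells (273 to 380), 3.59-fold apart (3.01 to 4.31). Id3 was found in 53.8% of smooth muscle-like and 20.2% of pericyte-like cells at 1000 UMIs. The pericyte-like cells were not uniform, with Id3 at 201 CPM (152 to 260) in a sub-cluster of 82 cells and at 528 CPM (425 to 649) in one of 37 cells, and the immediate early sum was 4809 and 47061 CPM in these, against 11688 CPM in smooth muscle-like cells. Its part was not tested. Id1 was at 239 CPM (206 to 276) in smooth muscle-like and 132 CPM (101 to 170) in pericyte-like cells, and Smad7 at 66.4 and 61.6 CPM with overlapping intervals. Id2, with 25 and 3 UMIs, gave a ratio of 4.84 (1.48 to 25), and Id4, with 10 and 1 UMIs, a ratio of 5.8 with an interval from 0.825 to 252, which spans 1. Smad6 had 7 UMIs in smooth muscle-like and 0 in pericyte-like cells, where the exact interval reached up to 8.12 CPM. In this contrast 13% of 9423 genes were over 2-fold higher and 13.4% over 2-fold lower in smooth muscle-like cells. The 57 mural cells of no named type had 269 CPM of Id3 (211 to 337) and 172 CPM of Id1 (127 to 228). With them counted as pericyte-like, the ratio was 3.84 for Id3 (3.31 to 4.47), 2.6 for Id2 (1.17 to 6.33) and 9.37 for Id4 (1.33 to 406). Id4 in smooth muscle-like cells was at 4.38% of its non-traced ependymal level. The 10 ependymal markers lay between 0.81% and 15.1% of theirs, and the part of ependymal RNA was not tested.

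Endothelial markers summed to 1228 CPM in pericyte-like, 868 CPM in smooth muscle-like and 4694 CPM in the unnamed mural cells, with none of the 8 at 0. Pericyte-like cells held 10.2% of the endothelial level of Id1 and 14.4% of that of Id3, above the range of the 8 markers there, 3.67% to 8.66%. Smooth muscle-like cells held 18.5% of the Id1 and 51.7% of the Id3 level, against 2.77% to 6.18% for the markers. In the 13 smooth muscle-like cells with no UMI of 4 endothelial markers, Id3 was at 1064 CPM (845 to 1322). In the 16 such pericyte-like cells it was at 275 CPM (146 to 470), with 13 UMIs. Both intervals overlapped those of the whole groups. Pericyte markers summed to 7814 CPM in smooth muscle-like cells, and their part was not tested.

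**Figure D5:**
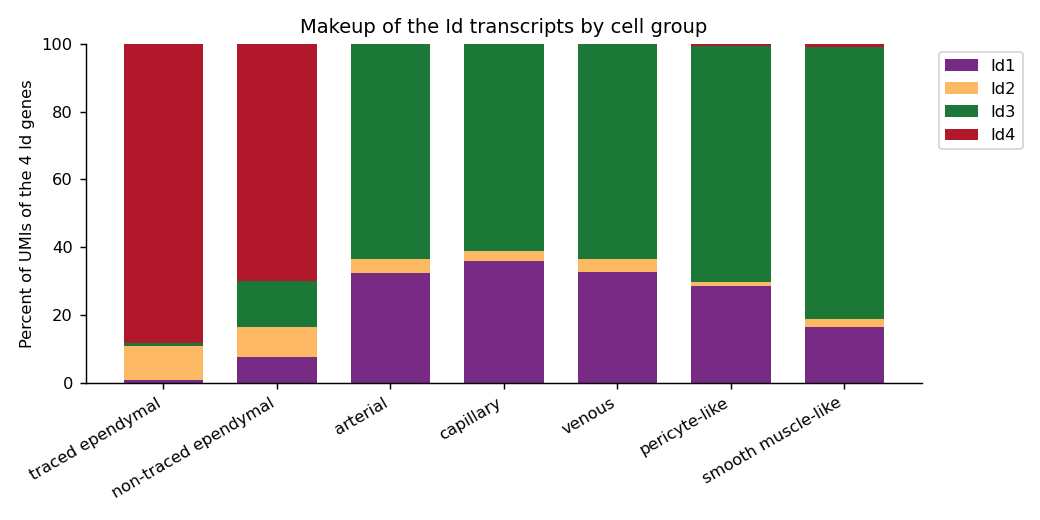
Makeup of the Id transcripts, as the percent of the UMIs of Id1, Id2, Id3 and Id4 (stacked to 100, y) in 7 cell groups (x). Id4 makes up 88.2% in traced cells, compared with 69.9% in the non-traced ependymal group, and Id3 and Id1 make up over 95% in the other 5 groups.

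The makeup of the captured Id molecules differed between the cell groups, though capture can differ between genes. Id4 gave 88.2% of the Id UMIs in traced cells (interval 87.7 to 88.7), compared with 69.9% in the non-traced ependymal group (68.4 to 71.4). In endothelial-like cells Id3 gave 61.5%, Id1 35.3%, Id2 3.23% and Id4 0.0384%, and this makeup was close to the same in arterial, capillary and venous cells, where Id3 ran from 61% to 63.5%. Pericyte-like cells had a similar makeup, with 69.7% Id3 (63 to 75.8) and 28.4% Id1, and smooth muscle-like cells had 80.4% Id3 (78 to 82.7) and 16.5% Id1. The summed level of the 4 Id genes was 317 CPM in traced cells, compared with 418 CPM in the non-traced ependymal group, 3656 CPM in endothelial-like, 465 CPM in pericyte-like and 1446 CPM in smooth muscle-like cells. Set against the summed level of their partners Tcf3, Tcf4 and Tcf12, this gave ratios of 1.02, 1.11, 3.89, 0.507 and 3.49 in the same order. These are ratios of transcripts, not of proteins.

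Of the 2 inhibitory Smads, Smad7 gave more UMIs than Smad6 in every group. Smad6 made up 37.2% of their sum in traced cells (34.6 to 39.8), compared with 41% in the non-traced ependymal group (35.5 to 46.6). In endothelial cells it made up 22.9% in arterial (22.3 to 23.6), 9.69% in capillary (9.26 to 10.1) and 11.1% in venous cells (10.2 to 12.1). In mural cells 9 of 108 UMIs, 8.33% (3.88 to 15.2), were Smad6.

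The 54 endothelial-like cells of the traced library had the endothelial pattern. Id3 was at 1888 CPM (1777 to 2004), Id1 at 752 CPM (683 to 826), Smad7 at 180 CPM (147 to 218), Id2 at 75 CPM (54.3 to 101) and Smad6 at 43.6 CPM (28.2 to 64.4). Against endothelial-like cells of the non-traced library these 5 lay within 2-fold, where 11.8% of 9460 genes were over 2-fold higher and 2.38% over 2-fold lower. Id4, at 38.4 CPM (24.1 to 58.1, 22 UMIs) against 1.4 CPM, was the 1 member past 2-fold. Ependymal markers were higher in these cells too, with a sum of 1228 CPM against 14.9 CPM. The Id4 level was 13.7% of that in traced ependymal-like cells, and the 10 ependymal markers lay between 9.38% and 19.4% of theirs. By whole clusters Id1, Id3 and Smad7 passed 2-fold, at -1.74, -1.28 and -1.06. That naming added 39 traced cells to the endothelial group which were ependymal-like when each library's part was named separately.

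Around the members, 71 other genes of the pathway were listed in 8 groups, and 67 of them were in the tables. Between traced and non-traced ependymal-like cells, 39 reached 10 CPM, and 3 of these were over 2-fold lower and none higher. The median difference of the 39 was -0.09, against 0.02 over all 9572 genes, of which 1.43% were over 2-fold lower and 0.794% higher. The 3 were Acvrl1 (0.198 against 11.6 CPM), Eng (2.16 against 18 CPM) and Nbl1, a secreted BMP antagonist (6.22 against 20.1 CPM). Acvrl1 and Eng were at 530 and 682 CPM in endothelial-like cells, and the part of endothelial RNA in their differences was not tested. Nbl1 was no higher in endothelial-like cells, at 20.1 CPM, than in the non-traced ependymal group. It was higher in mural cells, as given below. The 8 pericyte markers summed to 117 CPM in the non-traced ependymal group, against 11.9 CPM in the traced one. The part of mural RNA in the Nbl1 difference was not tested. Other receptors were within 2-fold, such as the type I receptor Bmpr1a (58.8 and 66.6 CPM) and the co-receptor Rgma (75.4 and 91.1 CPM). So were Smad4 (136 and 98.4 CPM) and Smad5 (115 and 93.4 CPM), and the targets Cdkn1a (129 and 113 CPM) and Hey1 (19.3 and 29.9 CPM), though the intervals of these 6 genes did not overlap between the groups. The ligands of at least 10 CPM in either group were Inhba (17.1 and 15.3 CPM), Inhbb (14.7 and 15.7 CPM), Tgfb2 (10.6 and 15.7 CPM) and Gdf11 (7.79 and 11.8 CPM), and Bmp6 had 7 and 3 UMIs. Among inhibitors and partners, Twsg1 (31.8 and 37.9 CPM), Tob1 (224 and 202 CPM), Fkbp1a (148 and 153 CPM), Hes1 (307 and 488 CPM) and Tcf4 (210 and 264 CPM) led, each within 2-fold.

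Some receptor genes of the pathway differed between ependymal and endothelial cells. In non-traced ependymal-like cells the type I receptors Bmpr1a and Bmpr1b were at 66.6 and 11.5 CPM, against 1.4 and 0.373 CPM in endothelial-like cells. The type I receptors Acvr1 (34.7 and 41.4 CPM) and Tgfbr1 (20.9 and 23.6 CPM) were within 2-fold. Endothelial-like cells held Acvrl1 at 530 CPM, Eng at 682 CPM, the type II receptor Bmpr2 at 460 CPM and Tgfbr2 at 230 CPM, against 11.6, 18, 52.8 and 29.2 CPM in ependymal-like cells. Of 13 receptor genes at 10 CPM or more, 3 were over 2-fold higher in ependymal cells, the third being Rgma (91.1 against 0.47 CPM), and 4 were lower. The signal-carrying Smads differed less, with Smad5 at 93.4 against 42.2 CPM as the 1 of 5 past 2-fold and Smad4 at 98.4 and 102 CPM. Of 10 other target genes, 6 reached 10 CPM in either group, and these 6 were over 2-fold lower in ependymal cells. They were Cdkn1a, Gata2, Hey1, Msx1, Tmem100 and Bambi, the last a pseudoreceptor that blocks BMP signals. Hey2, below 10 CPM in both groups, went the other way (9.11 against 1.61 CPM). Acvrl1 and Eng in ependymal cells were at 0.022 and 0.0264 of their endothelial level, near the endothelial markers (1.38% to 2.54%), and the part of endothelial RNA was not tested. Ligands and antagonists on the ependymal side were Gdf11, Inhba, Inhbb and Nog (18.2 against 2.58 CPM), and on the endothelial side Tgfb1 (3.11 against 102 CPM) and Tgfb2 (15.7 against 213 CPM). The inhibitors Smurf1, Skil and Fkbp1a and the partners Tcf3 and Tcf4 were lower in ependymal cells, while Tob1, Twsg1, Nbl1 and Hes1 lay within 2-fold. In all, 8 of 43 genes were higher and 17 lower, with a median of -0.54 against 0.08 over all 10507 genes. Of all 10507 genes, 27.2% were over 2-fold higher and 19.5% lower.

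Beside Smad6, 6 of 39 pathway genes were over 2-fold higher in arterial than in capillary cells and none was lower. Of all 8464 genes, 3.24% were over 2-fold higher and 1.29% lower. The median was 0.08 for the pathway genes against 0.04 over all genes. The target Tmem100 was at 175 against 8.61 CPM, Hey1 at 204 against 49.7 CPM and Msx1 at 117 against 26.3 CPM. The ligand Bmp2 was at 14.1 against 0.534 CPM, Tgfb2 at 341 against 161 CPM and the secreted protein Fstl1 at 25.1 against 1.91 CPM. Receptors were within 2-fold, with Acvrl1 at 627 and 483 CPM and Eng at 881 and 636 CPM, and so were Smad4, Smad1, Tgfb1, Twsg1, Fkbp1a, Pmepa1, Cdkn1a, Gata2, Hes1 and Tcf4. In venous cells 1 of 35 genes passed 2-fold, Hey1, at 12.9 against 49.7 CPM, and Bmp2 and Bmp4 were below 10 CPM in both. The median was -0.02 against -0.01 over all 8354 genes, of which 1.44% were over 2-fold higher and 0.563% lower.

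Mural cells held ligands and antagonists that endothelial cells had at low levels. Bmp4 was at 66.6 against 1.48 CPM, Bmp5 at 39.6 against 0.281 CPM, Bmp2 at 34.3 against 4.49 CPM and Gdf11 at 28.4 against 1.7 CPM, which made 4 of 4 ligands at 10 CPM or more. Of the antagonists, Nbl1 (815 against 20.1 CPM), Fstl1 (106 against 7.89 CPM) and Twsg1 (73.2 against 26.2 CPM) were higher too. Pericyte-like cells held more Bmp4, 141 against 12.8 CPM, and smooth muscle-like cells more Bmp2, 58.7 against 11 CPM. Of 12 receptor genes, Bmpr1a (113 against 1.4 CPM) and Rgma were higher, and Acvrl1 (60 against 530 CPM), Acvr1, Bmpr2, Tgfbr2 and Eng (156 against 682 CPM) were lower. Of 7 other targets, Hey2 was higher (142 against 1.61 CPM), and Hey1, Msx1, Gata2, Cdkn1a and Bambi were lower. Tgfb3 and Inhba were higher, and Tgfb2, Smad3, Skil, Tob1 and Tcf3 were lower. In all, 13 of 47 genes were higher and 15 lower, with a median of -0.32 against -0.00 over all 9515 genes. Of all 9515 genes, 15.7% were over 2-fold higher and 15% lower. In traced against non-traced endothelial-like cells, 1 of 38 passed 2-fold, Rgma, at 12.2 against 0.47 CPM with 7 UMIs. The median was -0.08 against 0.11 over all 9460 genes, of which 11.8% were over 2-fold higher and 2.38% lower.

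The genes with the most similar levels over 31 cell groups of at least 50 cells, for the most part sub-clusters, were named for each member. Pearson's r of log2(CPM + 1) was used. These groups came from 2 libraries and shared depth and cell class within each. For Id1 they were Wfdc1, Cav1 and Fxyd5 and for Id3 Anxa3, Fxyd5 and Cav1, all at r of 0.98 or 0.99. For Id4 they were Sox2, a neural progenitor factor, and Dynlrb2 and Mns1, genes of cilia, at 0.99. For Smad7 they were Adam15, Adipor1 and Acer2 at 0.98 to 0.99. Id2 was nearest to Klf2, Klf6 and Skil at 0.89 to 0.90, and Smad6 to Plpp1, Fbxo7 and Plec at 0.88 to 0.93. Among the members themselves Id1 and Id3 were closest (0.97), followed by Id1 and Smad7 (0.95), and Id4 ran opposite to Smad7 (-0.90), Id1 (-0.88) and Id3 (-0.86).

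Within the 12 endothelial sub-clusters alone, the pairs changed. Smad6 and Smad7 were closest (0.92), followed by Id2 and Smad6 (0.81), while Id1 and Id3 stood at 0.74 and Id1 and Id2 at 0.19. The genes nearest to Smad6 there were Fbln2, Gper1 and Tfeb at 0.97 to 0.98, and those nearest to Smad7 were Sh2b3, Furin and Jag2 at 0.96. Id3 was nearest to Igfbp7, Tsc22d1 and Rras (0.91 to 0.92) and Id1 to Fas, Rasgrp2 and Insig1 (0.87 to 0.90).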

How the data were processed

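Gene counts of single cells from 2 droplet libraries (10x, 3′ ends) were analysed. The authors made the deposited counts, whole-number UMIs per gene and cell barcode. The submitters' processing notes name Cell Ranger 3.0.2, STAR 2.5.1b, R 3.6.0, Seurat 3 and mm10. All 25411 and 4825 barcodes passed the filter stated by the study, a minimum of 50 genes detected and a maximum of 10% mitochondrial. UMIs per cell limit the precision: medians were 7218 and 8566.

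Libraries were integrated and clustered without the members and pathway genes in Seurat 5.3.0 (R 4.3.3), with 2000 features, 20 components and a resolution of 0.8. Within a cluster, the cells of each library were named separately, where at least 3 markers of a class were present in at least 50% of these cells. A part where at least 50% of another class's markers were present was called mixed and set aside. No doublet caller was run. The naming thresholds were set after the data were seen. Globin genes were not counted as leading markers, and a sub-cluster led by markers of another class was left unnamed, with the endothelial and segment lists counted as 1 class for mural cells.

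UMIs were summed per group and given as CPM with exact Poisson intervals, ratios with exact conditional binomial intervals, and shares at 1000 UMIs per cell with Clopper-Pearson intervals, all at the 95% level (Python 3.11.15, numpy 2.4.6, pandas 2.3.3, scipy 1.17.1, matplotlib 3.10.9). Differences are of log2(CPM + 1), which understates the change of low genes, and counts past 2-fold cover genes of at least 10 CPM in either group. With 1 library per group no test was made. The scripts were tested on simulated data.

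The members and lists were chosen with earlier results of these data known. Named were all 6 members, per pathway list the 2 genes of highest CPM and those past 2-fold, and 3 like genes per member. A gene that the rule would name is not reported here. Other genes named (Bmp4, Bmp6 and Tmem100 where not past 2-fold, and the genes leading clusters) were chosen after their values were seen. Promoter sequences are from RefSeq, and 4 of the 5 members searched matched. Alternatives covered the integration, naming, possible doublets, pseudocount, CPM denominator, mean over cells, mitochondrial limit, thinning, resolution and filter on low values. Leaving out the Ucma-led cluster or the shared barcodes, and counting the unnamed mural sub-cluster as pericyte-like, were added after the data were seen.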

Additional observations from a re-analysis of the deposited data

Results flagged for a closer look

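Id2 was at 752 CPM (695 to 812, 644 UMIs) in 81 droplets of the non-traced library that held both astrocyte and endothelial markers and entered no comparison. Among the named cell groups the highest Id2 level was 158 CPM, in arterial cells. No control group for these droplets exists, and they were singled out because the level lay far above what a count of 0 allows (3.5 CPM). Every member passed that limit in these droplets, the lowest being Smad6 at 16.3 CPM, so the limit does not set Id2 apart.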

How the results depend on the processing

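Of the values under alternatives, 366 stayed within the error of the value reported and 112 moved, and none of the called values changed sign. Between the ependymal groups, whole clusters gave -5.71 for Id1, -0.43 for Id2, -6.24 for Id3, 0.12 for Id4 and -1.20 for Smad7, and 522 genes over 2-fold lower against 137. Without cells holding a UMI of 4 endothelial markers the difference was 0.03 for Id4 and -0.71 for Smad6, and 218 genes were over 2-fold higher against 76. A pseudocount of 5 gave -2.27 for Id1, -2.98 for Id3 and 33 genes higher. Without cells over 5% mitochondrial UMIs it was -0.41 for Id2, -0.13 for Id4 and -0.44 for Smad7. Without the Ucma-led cluster Id4 was at -0.14 and 79 genes were lower. Whole clusters added cells with endothelial markers to the non-traced ependymal group, as given above. The cause of these shifts was not tested. With no filter on low values, which tests more genes, 147 genes were higher and 462 lower between the ependymal groups, 4769 higher in ependymal than endothelial cells, 514 higher and 166 lower in arterial cells, 213 higher in venous cells, 2759 higher and 2162 lower in mural cells, and 2813 higher and 1057 lower in traced endothelial-like cells. At resolution 0.4, 194 genes were lower in arterial and 22 lower in venous cells. Mural cells with no UMI of 4 endothelial markers had 2350 genes lower. For traced endothelial-like cells, whole clusters gave 2576 higher and 861 lower, and a pseudocount of 5 gave 100 lower. As a percent of the endothelial level in non-traced ependymal-like cells, whole clusters gave 13.4 for Id1, 13 for Id3 and 11.7 for the marker median, and clustering with no integration gave 1.95 for the marker median.

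The mural Id4 difference of 1.78, from 11 UMIs, was 0.94 with a pseudocount of 5 and -1.27 without cells with a UMI of 4 endothelial markers. The Smad6 difference between traced and non-traced endothelial-like cells turned from 0.14 to -0.74 by whole clusters. Clustering with no integration gave no mural class and no traced endothelial part of at least 25 cells, so these values were not run. No paired analysis was possible because each group was 1 library. Depth limits Smad6 and Id4 in mural cells, and the animals' spread is unknown.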

Other observations

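Droplets that held markers of several cell types showed members of each type side by side. In 690 droplets of endothelial and ependymal markers (median 14063 UMIs), Id4 was at 135 CPM, Id3 at 1252 CPM, Id1 at 672 CPM and Id2 at 85 CPM. In 1740 droplets of endothelial and pericyte markers, Id1 was at 1192 CPM and Id3 at 1843 CPM. In 247 droplets that added smooth muscle markers, Id3 was at 2143 CPM, Id1 at 890 CPM and Smad6 at 61.1 CPM. In the 81 droplets of astrocyte and endothelial markers, Id4 was at 84.1 CPM, Id3 at 904 CPM, Id1 at 453 CPM and Smad7 at 111 CPM.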
